A study of Mus musculus with 34 samples.

Results

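The regions described here are open chromatin sites of uninduced mouse embryoid bodies (EB), the clumps that embryonic stem cells form as they differentiate, that had no counterpart in EB in which the transcription factor Etv2 had been induced. They were taken from lists of ATAC-seq summits, a summit being the position where the signal of a peak, or of part of it, is highest. The members are the summits of the uninduced list, on chromosomes 1 to 19 and X, that had a score of 10 or more and no summit within 250 bp in the list of induced EB or in the list of induced Flk1-positive EB. The members were chosen by that score and by the absence of summits from these lists. The score, as the authors deposited it, is a −log10 q value from peak calling. Of 47755 uninduced summits of that score, 3619 met the rule, which is 7.58% (95% exact Clopper-Pearson interval 7.34% to 7.82%). They lay in 3555 peaks, and the 19 lists of the study held 707465 summits in all. A further 36292 summits (76.0%) had a counterpart in both induced lists and are called kept here. Another 6743 (14.1%) had one only in the list from unsorted induced EB, and 1101 (2.31%) only in the Flk1-positive list.

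"Closed" is therefore a statement about list membership: no summit was called nearby at a q value of 0.05 after induction. It is not a tested change, because each of these 3 lists stands for a group of 2 samples and carries no replicate error. All 3 groups are labelled EB at 12 h, the uninduced without doxycycline (NoDox), the induced with doxycycline (Dox) and the last with doxycycline and marked positive for Flk1, the receptor encoded by Kdr. The induced EB not marked so are called unsorted here. The control therefore differed from the induced cells in the drug as well as in Etv2, and these cannot be told apart. The labels of these EB give no genotype, and they do not say from what the 12 h were counted. A lost summit also does not tell fewer cells with the site open from less opening per cell. The other EB lists are 4 separate day-4 samples, all with doxycycline and with floxed Brg1 (Smarca4, the motor of the SWI/SNF remodelling complex), 2 of them without and 2 with 4-hydroxytamoxifen (4OHT). The series' design text speaks of Brg1 knockout EB, while no label states how much Brg1 protein was left. A set of 12 further lists came from mouse embryonic fibroblasts (MEF) carrying inducible HA-tagged Etv2, 5 without knockdown (before induction, on days 1, 2 and 7, and Flk1-positive cells of day 7) and 7 with Brg1 knockdown (KD). The 3 EB lists at 12 h held 85498, 77987 and 58004 summits (uninduced, induced, Flk1-positive), the day-4 lists 17946 to 31436 and the MEF lists 11188 to 62028. Read depth was not given in the files, so list length is the only guide to it.

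ATAC-seq uses the Tn5 transposase, which inserts into DNA that is not wrapped tightly in nucleosomes, so that promoters and enhancers in use stand out. Etv2 is an ETS-family factor that is needed for the earliest blood and vessel progenitors, which arise from Flk1-positive mesoderm. Differentiating EB can hold cells leaving pluripotency and entering mesoderm, and the cell states of these EB were not tested. Marker genes were checked first: 23 of 28 pluripotency genes and 23 of 27 streak and mesoderm genes had an uninduced EB summit within 1 kb of a gene end, against 9 and 10 in the uninduced MEF list. For 25 fibroblast genes the numbers were 19 in EB and 20 in MEF, so that list did not separate the cells. Neural (22 of 22 in EB, 11 in MEF) and epithelial genes (20 of 22 against 4) were also listed widely in EB, so the check sets EB apart from MEF without singling out a cell type.

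Closed summits inside annotated promoters were few, and 5 of them are shown as examples of both kinds of member described next. RefSeq promoter windows (GRCm38.p6, the assembly of mm10) covered 300 bases, 250 before a transcript start and 50 after it, and 57 closed summits (1.58%) fell into one, against 6435 kept summits (17.7%). Each sequence below is the 250 bases before the start on the gene's own strand, 5′ to 3′, with the closed summit and the 15 bases on either side of it in capitals. Prickle1 (chr15:93519521-93519770, minus strand), which codes for a planar cell polarity protein, and Hoxb1 (chr11:96365508-96365757, plus strand), an anterior Hox gene of the hindbrain, are shown because a summit remained a short way off after induction. Defb10 (chr8:21858651-21858900, plus strand), a beta-defensin gene, 2900052N01Rik (chr9:46913353-46913602, plus strand) and Pld1 (chr3:27983921-27984170, plus strand), a phospholipase gene, are shown because no induced summit lay within 1 kb. These last 3 have the highest scores of that kind and were chosen after their values were seen.
Prickle1: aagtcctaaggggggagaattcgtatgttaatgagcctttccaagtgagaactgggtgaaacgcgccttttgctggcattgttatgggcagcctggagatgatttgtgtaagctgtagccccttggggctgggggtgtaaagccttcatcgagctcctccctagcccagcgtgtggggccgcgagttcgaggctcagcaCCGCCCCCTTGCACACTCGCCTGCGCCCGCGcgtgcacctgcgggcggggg
Hoxb1: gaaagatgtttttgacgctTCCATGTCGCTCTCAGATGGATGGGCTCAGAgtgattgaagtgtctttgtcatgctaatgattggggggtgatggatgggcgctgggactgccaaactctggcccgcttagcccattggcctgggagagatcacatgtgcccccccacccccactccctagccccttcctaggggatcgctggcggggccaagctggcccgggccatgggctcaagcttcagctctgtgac
Defb10: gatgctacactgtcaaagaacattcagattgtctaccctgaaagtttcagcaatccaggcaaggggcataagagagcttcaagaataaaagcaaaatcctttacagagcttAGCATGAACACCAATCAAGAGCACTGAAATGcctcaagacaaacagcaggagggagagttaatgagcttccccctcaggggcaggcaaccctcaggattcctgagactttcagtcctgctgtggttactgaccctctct
2900052N01Rik: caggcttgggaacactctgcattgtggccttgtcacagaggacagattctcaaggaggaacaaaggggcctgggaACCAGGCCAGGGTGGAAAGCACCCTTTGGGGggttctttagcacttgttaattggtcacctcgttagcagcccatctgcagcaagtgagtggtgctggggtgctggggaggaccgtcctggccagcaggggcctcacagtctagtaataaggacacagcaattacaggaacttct
Pld1: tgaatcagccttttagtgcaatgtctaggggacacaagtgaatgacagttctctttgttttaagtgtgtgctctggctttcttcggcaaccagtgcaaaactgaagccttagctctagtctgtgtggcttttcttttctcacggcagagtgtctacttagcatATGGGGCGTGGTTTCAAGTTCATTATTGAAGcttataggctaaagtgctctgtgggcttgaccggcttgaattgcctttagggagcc
At Prickle1 the summit (score 103) lay 36 bases before a start inside the gene, and the nearest induced summits were 293 bp (unsorted) and 323 bp (Flk1-positive) away. At Hoxb1 (score 14.5) those distances were 290 and 1582 bp. At Defb10 (score 32.0) they were 46474 and 54079 bp, and at 2900052N01Rik (score 24.2) 44460 and 44466 bp. At Pld1 (score 20.6) they were 1691 and 45038 bp. The Prickle1 and Hoxb1 sites thus had a summit close by in an induced list, and the other 3 had none within 1 kb.

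That division ran through the whole group. Of the 3619 closed summits, 783 (21.6%) lay within 1 kb of a summit in either induced list and 2836 (78.4%, or 5.94% of all uninduced summits of that score) lay beyond 1 kb from any. This split was added after the data had been seen. The median distance to the nearest induced summit was 9082 bp, and 1723 closed summits (47.6%) had none within 10 kb. Among the 783 near ones, 569 (72.7%) had as their nearest induced summit one that matched another uninduced summit. In 673 cases (18.6%) another summit of the closed summit's own peak had a counterpart in either induced list, but this held for only 22 of the 2836 beyond 1 kb. The other 2946 lay in peaks of which no summit had one. Another closed summit lay within 10 kb of 237 closed summits (6.55%). The share to be looked for in a set of this size was not computed, so this is not read as clustering or its lack.

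Most members were weak peaks. The median score was 14.3 (quartiles 11.4 and 20.3) among closed and 38.0 among kept summits, and this follows in part from the rule, which asks for a missing call. Of uninduced summits scoring 10 to 20, 2706 of 16098 (16.8%) were closed. The share fell to 825 of 17142 (4.81%) at 20 to 50, to 76 of 9458 (0.804%) at 50 to 100 and to 12 of 5057 (0.237%) at 100 or more. The near kind took a growing part of the closed summits along these bands, 18.4%, 27.8%, 61.8% and 83.3%, so that 10 of the 12 strongest closed summits had an induced summit within 1 kb. At the edges of the rule, the lowest scores inside were 10.0028 (near Sfi1), 10.0059 (Arhgef18) and 10.0169 (Cntnap5c), and scores of 9.98961 (Twist2) and 9.99935 (Galc and Immp2l) fell just outside. At the distance limit, summits near Tmprss15, Lgi2 and Nr2f1 lay 251 bp from the nearest induced summit and counted as closed, and summits near Nlrp9b, Gpr26 and Palld at 250 bp did not. Between 251 and 300 bp there were 264 closed summits, and 671 had scores from 10 to 11, against 573 otherwise closed summits with scores from 9 to 10.

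**Figure D1:**
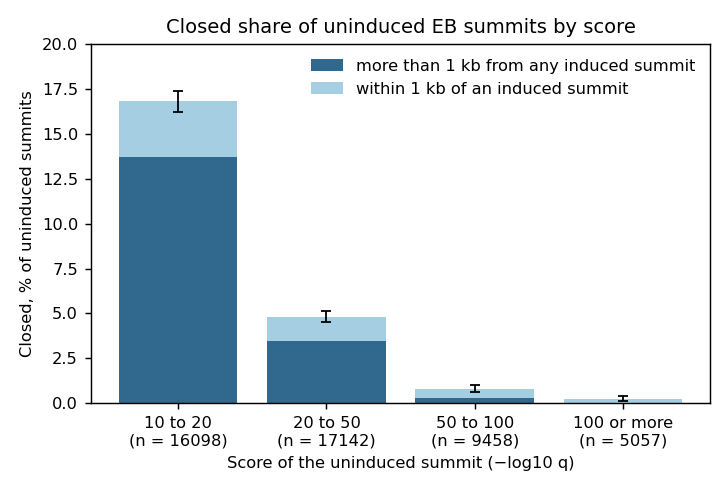
Share of uninduced EB summits that were closed (y axis, percent) in 4 bands of the deposited score (x axis, −log10 q). Bars are split into closed summits more than 1 kb from any induced summit (dark) and those within 1 kb of one (light), and error bars are 95% exact intervals of the whole bar. The share falls from 16.8% at scores of 10 to 20 to 0.237% at 100 or more, and the dark part nearly vanishes in the upper bands.

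How often a strong summit goes missing between lists of like samples sets the scale for these shares. Against the unsorted induced list alone, 4720 uninduced summits of score 10 or more (9.88%) had no counterpart, and against the Flk1-positive list 10362 (21.7%). In the other direction, 3795 of 43334 induced summits of that score (8.76%) had none in the uninduced list. Between the 2 replicates of day-4 EB without 4OHT the share was 9.96% in one direction and 5.61% in the other, and between those with 4OHT it was 4.74% and 6.25%. At scores of 10 to 20, 20.4% of uninduced summits were missing from the induced list, against 7.23% to 15.8% between day-4 replicates. At scores of 20 to 50 the values were 7.11% against 3.04% to 4.54%. At 50 to 100 the share, 1.87%, lay inside the replicate range of 1.60% to 2.41%. The uninduced-to-induced loss was thus above the replicate loss in the 2 lower bands and not above it among strong peaks. Over all scores it was 9.88%, numerically inside the replicate range of 4.74% to 9.96%. So was the closed share of 7.58%, which asks for absence from 2 lists. These pooled shares mix unlike scores, and strong summits were seldom missing. Of 47755 uninduced summits 9458 scored 50 to 100, against 581 of 13852 in day-4 replicate 1 without 4OHT. The bands are therefore the closer comparison, and the pooled shares do not place the loss at the replicate level. The day-4 lists are shorter and were made differently (at most 1 summit per peak), and whether that moves these shares was not tested.

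The strongest members were mostly of the near kind. The top score by far, 602, belonged to chr9:24542096, 14.95 kb outside Dpy19l2, a sperm-head gene, and 16294 bp from the nearest induced summit. It matched none of the other 16 lists either. Whether it lies in repeated sequence was not tested. The next, 366, was chr10:13893889 near Aig1, only 293 and 253 bp from summits of the unsorted and Flk1-positive lists, and it was matched in 11 of the 12 MEF lists. The remaining near ones of the top 12, around Trim52, Tmem121, 1700008P02Rik, Camk2d, Pkn2, Fcgr1, Gm32719, Rab28 and Prickle1, scored 103 to 240. Each had a summit of the unsorted induced list at 286 to 608 bp. Only Dpy19l2 and chr2:73867984 inside Atf2, a CREB-family factor (score 107, 24650 bp from an induced summit), were far from any. The Atf2 site was matched in the second day-4 sample without 4OHT and in uninduced MEF. Below these, chr2:137665094, 549 kb from the Notch ligand gene Jag1 (score 72.3), and chr8:17835114, 300 kb from Csmd1 (score 60.6), lay beyond 1 kb and were matched in both day-4 lists without 4OHT and in neither with it. These were named after their values were seen.

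Closed summits lay farther from gene ends than kept ones. Within 1 kb of either end of a protein-coding gene there were 308 closed summits (8.51%, interval 7.62% to 9.47%) against 13229 kept ones (36.5%). The near and far kinds differed strongly: 259 of 783 near ones (33.1%) were at gene ends, close to the kept share, against 49 of 2836 (1.73%) beyond 1 kb. This gap follows at least in part from the split itself. Of 14637 uninduced summits at gene ends 13229 were kept, so few sites there can lie beyond 1 kb from an induced summit. The difference from kept summits held within score bands, 6.13% against 22.4% at 10 to 20 and 14.2% against 34.6% at 20 to 50, although at the higher scores most closed summits at gene ends were of the near kind (110 of 117). The median distance to a gene end was 35465 bp for closed and 6514 bp for kept summits. Closed summits were inside a gene in 40.9% of cases against 51.8% of kept ones, and more than 50 kb outside any gene in 30.2% against 18.4%.

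Seen from the other side, 2.10% of uninduced summits at gene ends were closed, 8.79% of those elsewhere in genes of ordinary length, 9.82% outside genes but within 50 kb, 11.1% further out and 12.3% (258 of 2092) inside genes longer than 500 kb. The length limit of 500 kb was chosen after the data had been seen. At scores of 10 to 20 the share was 23.6% (interval 20.7% to 26.6%) in these long genes and 23.2% (21.8% to 24.6%) more than 50 kb outside genes, against 15.7% (14.7% to 16.7%) in other genes. The inside of very long genes thus had a closed share like that of gene deserts. At scores of 20 to 50 the same 3 shares were 8.57%, 6.59% and 5.52%, with intervals that overlapped between neighbours. By chromosome the closed share ran from 5.47% on chromosome 11 to 9.02% on chromosome 16, with X at 8.57%.

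**Figure D2:**
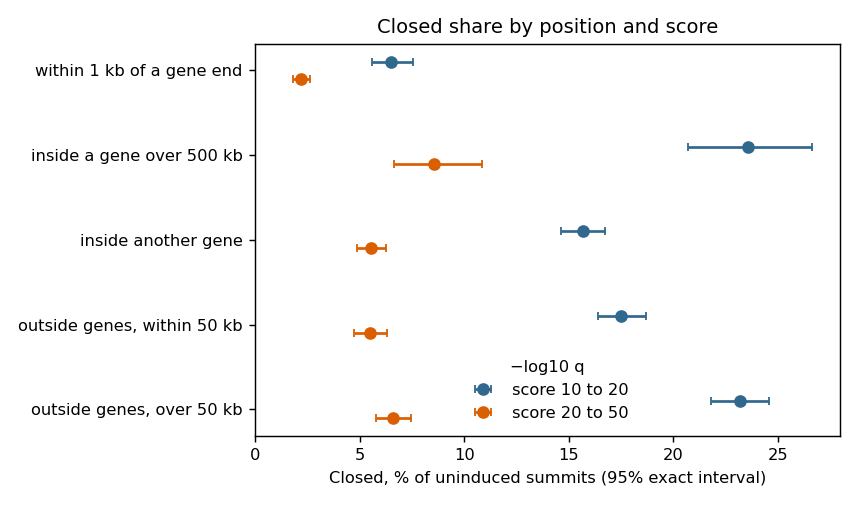
Share of uninduced EB summits that were closed (x axis, percent, with 95% exact intervals) by position relative to protein-coding genes (y axis), for scores of 10 to 20 (blue) and 20 to 50 (orange). Gene ends have the lowest shares, 6.50% and 2.18%, and in the lower band genes over 500 kb and places over 50 kb from genes have the highest.

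The day-4 EB offer samples that the rule did not use. In the 2 day-4 samples without 4OHT, 15.8% and 10.2% of closed summits had a counterpart within 250 bp. In the 2 samples with 4OHT the shares were 3.04% and 3.62%. The groups did not overlap, and the mean went from 13.001% ± 3.97 (SD, n = 2) to 3.33% ± 0.410 (SD, n = 2), a difference of −9.67 percentage points (exact permutation test, two-sided, p = 0.333, the smallest p that 2 samples against 2 can give). Kept summits were matched in 60.6% and 51.1% of cases without 4OHT and in 43.5% and 47.5% with it. The difference between their means was −10.3 percentage points, against −9.67 for closed summits. Closed summits were therefore listed much less often than kept ones in every day-4 sample. This may follow in part from the rule, since kept summits were picked for a call in 2 further lists. Taken as a ratio to the kept share of the same sample, the closed share was 0.261 and 0.200 without 4OHT and 0.0698 and 0.0762 with it. The same exact test gave p = 0.333 for this ratio.

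The difference with 4OHT was steepest at sites with no induced summit around them. Beyond 1 kb, 14.8% and 8.92% of closed summits were matched without 4OHT and 1.06% and 1.76% with it, so the mean with 4OHT was 0.119 of the mean without. Within 1 kb the shares were 19.3% and 14.8% against 10.2% and 10.3%, a ratio of 0.603. Away from gene ends (over 1 kb) the mean closed share went from 12.2% to 2.14% and the kept share from 42.1% to 29.7%. At gene ends closed summits went from 21.4% to 16.1% and kept ones from 79.8% to 73.1%. At scores of 10 to 20 closed summits were matched in 12.6%, 7.72%, 1.66% and 2.37% of cases (without 4OHT, then with). Kept ones were matched in 35.2%, 24.3%, 15.6% and 19.5%. Both kinds were thus matched less often with 4OHT within this band. In percentage points the kept share fell more (−12.2 against −8.15). As a ratio of the mean with 4OHT to the mean without, the closed share fell more (0.198 against 0.589).

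The day-4 lists without 4OHT were longer, 31436 and 23823 summits against 17946 and 20229. With all 4 cut to their 17946 best-scoring summits, an alternative added after seeing the data, closed summits were matched in 6.55% and 6.19% without 4OHT and in 3.04% and 3.04% with it. Beyond 1 kb the shares were 5.39% and 5.15% against 1.06% and 1.305%. Kept summits then showed hardly any gap, 43.9% and 43.0% against 43.5% and 44.0% (difference 0.300 percentage points, exact permutation p = 0.667). They were not matched to the closed ones for score or position, and the equal-length shares were not split by score band. As deposited, kept summits of scores 10 to 20 over 1 kb from a gene end went from a mean of 23.7% to 11.4% with 4OHT. Closed summits of that kind went from 9.72% to 1.56%. At equal length the difference at closed summits was −3.33 percentage points, against −9.67 as deposited (exact permutation p = 0.333 for both). In the lists as deposited, 241 closed summits (6.66%) were found in both day-4 samples without 4OHT, and 197 of these (81.7%) in neither sample with it. The same held for 2938 of 16419 kept summits (17.9%), which were not matched to the closed ones for score. This count was not repeated at equal length. Single sites described by their day-4 matches also rest on the lists as deposited. Whether 4OHT itself moves these sites, apart from Brg1, cannot be told apart here.

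**Figure D3:**
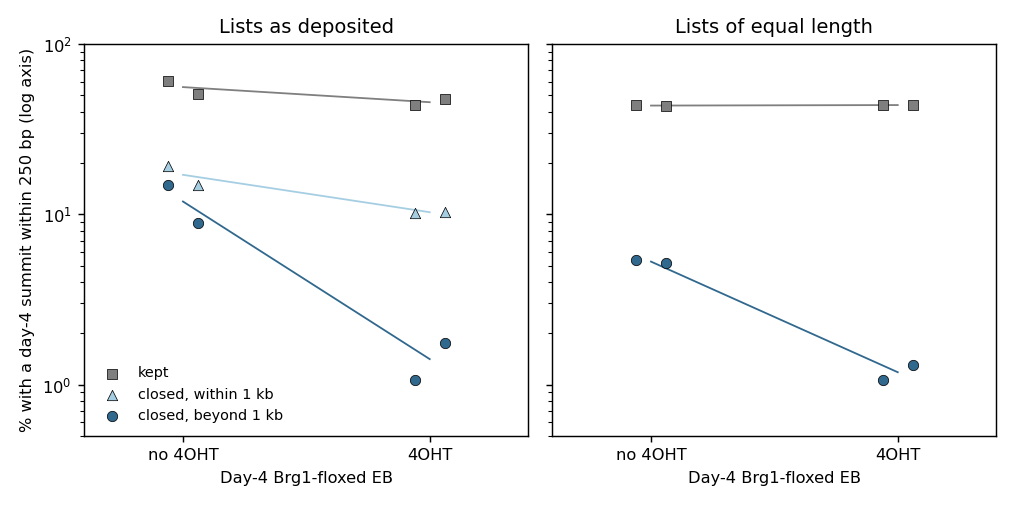
Share of summits with a counterpart within 250 bp (y axis, percent, log scale) in each day-4 Brg1-floxed EB sample without and with 4OHT (x axis), with the lists as deposited (left) and cut to 17946 summits each (right). Points are samples and lines join group means, for kept summits (squares), closed summits within 1 kb of an induced summit (triangles, left panel only) and closed summits beyond 1 kb (circles). The circles fall furthest in both panels, whereas the squares are level on the right. Kept summits are not matched to closed ones for score or position.

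Closed summits were seldom listed in fibroblasts. In uninduced MEF 312 closed summits (8.62%, interval 7.73% to 9.58%) had a counterpart, against 48.0% of kept summits. Beyond 1 kb it was 145 (5.11%), and within 1 kb 21.3%. After induction of the MEF, the closed summits beyond 1 kb were matched in 2.82% of cases on day 1, 0.882% on day 2, 0.458% on day 7 and 1.16% in Flk1-positive cells of day 7. Kept summits stood at 44.8%, 34.0%, 25.8% and 36.4% in the same lists. Kept summits of scores 10 to 20 were matched less often, in 25.8%, 11.5%, 6.41% and 14.8% of cases, against 2.99%, 0.905%, 0.407% and 1.13% of closed ones beyond 1 kb in that band. In uninduced MEF the values of that band were 32.2% for kept and 7.21% for all closed summits. In the 7 KD lists closed summits were matched in 1.93% to 6.44% of cases and kept ones in 13.5% to 44.1%. The longest MEF list had the highest share of both kinds of summit and the 2 shortest had the lowest. Over all 12 MEF lists, 552 closed summits (15.3%) had at least 1 counterpart and 7 had one in every list. No day-4 and no MEF list had a counterpart for 2487 closed summits (68.7%), against 18.2% of kept ones. As the rule also asks for absence from both induced lists, these 2487 were listed in uninduced EB alone. Kept summits were picked for a call in 2 further lists. Their higher shares in the remaining lists may follow in part from that choice.

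**Figure D4:**
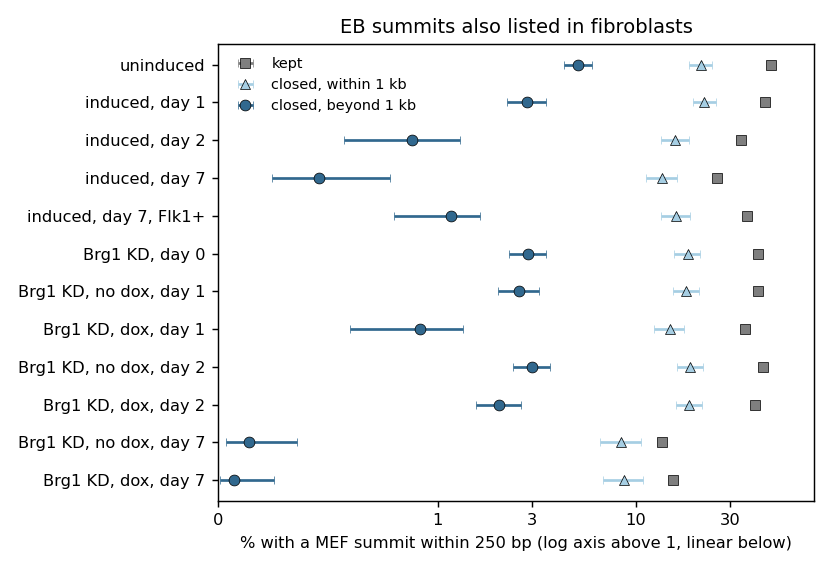
Share of EB summits with a counterpart within 250 bp (x axis, percent, logarithmic above 1 and linear below) in each of the 12 MEF lists (y axis), for kept summits (squares), closed summits within 1 kb of an induced EB summit (triangles) and closed summits beyond 1 kb (circles), with 95% exact intervals. In every list the circles lie lowest and the squares highest.

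The genes with most closed summits included several very long ones. Of 21631 protein-coding genes, 4019 (18.6%) had a closed summit within 50 kb and 655 (3.03%) had 2 or more. Dlg2, a scaffold protein of synapses, and Robo1, the Slit receptor that guides axons, had the most, 8 each of 35 and 22 uninduced summits. Thrb, the thyroid hormone receptor beta gene, had 6 of 11. The adhesion molecule genes Lsamp and Cntn5 had 6 of 30 and 6 of 21, the ephrin receptor gene Epha6 6 of 18 and Dpp10, a partner of potassium channels, 6 of 16. Eps8, an actin regulator, had 6 of 13. The presynaptic adhesion gene Nrxn3 had 5 of 44 and Astn2, which acts in neuron migration, 5 of 19. The median length of the 12 genes with most closed summits was 1022 kb, against 17.3 kb for all genes, although Dbndd1 and Gas8, also among the 12, are 13.6 and 17.8 kb long. A longer gene takes in more summits of every kind.

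Around Dlg2 the 8 scores ran from 10.8 to 70.0, 7 of the sites were beyond 1 kb, and none was matched at day 4 or in MEF. Around Thrb the sites within the gene scored 13.6 to 29.5, and 4 of them were in the 100 kb from chr14:17700001, where only 5 uninduced summits lay. Robo1 also had 4 closed of 9 in the 100 kb from chr16:72600001. Among them was chr16:72699495 (score 22.6), matched in both day-4 samples without 4OHT and in neither with it. Cntn5 (chr9:10645546, score 23.1) and Astn2 (chr4:65394113, score 27.2) each had a site of the same kind. Sema6d, a semaphorin gene, had 4 closed of 7 uninduced summits in the 100 kb from chr2:124600001.

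The 100 kb from chr8:123500001, with Afg3l1, Dbndd1 and Gas8, held 7 closed of 63 uninduced summits, and the next 100 kb, with Rhou, held 5 of 36. All 12 of these closed summits were within 1 kb of an induced summit. Whether these stretches hold repeated sequence was not tested. Dbndd1 and Gas8 came among the 12 genes only through the same 5 sites, of which each was matched in 6 to 12 MEF lists. Of the 100 kb stretches with any closed summit, 2911 held 1, 312 held 2, 20 held 3 and 3 held 4, beside these 2.

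Lists of lineage and pathway genes give the group's spread over development. Over 16 lists, 98 of 403 genes (24.3%) had a closed summit within 50 kb, against 18.6% of all genes, and the median number per gene was 0 in every list and over all genes. These genes also have many summits: of all uninduced summits counted around protein-coding genes 4.99% were closed. For the lists this share was 4.52% for streak and mesoderm, 6.43% for pluripotency, 7.79% for cardiac, 6.31% for endothelial and 7.76% for blood genes. It was 4.26% for neural, 3.52% for epithelial, 5.50% for Wnt, 5.56% for FGF and 3.47% for Nodal and BMP genes. It was 7.14% for trophoblast and 6.96% for fibroblast genes, 3.88% for SWI/SNF subunits, 2.48% for housekeeping and 1.54% for endoderm genes, the last with only Cubn (1 of 18 genes). For Hox genes it was 10.6%, which counts the same 4 closed summits at several genes. The list shares lay on both sides of the 4.99% over all protein-coding genes, and each list had only 1 to 13 closed summits. No list was tested against that share.

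**Figure D5:**
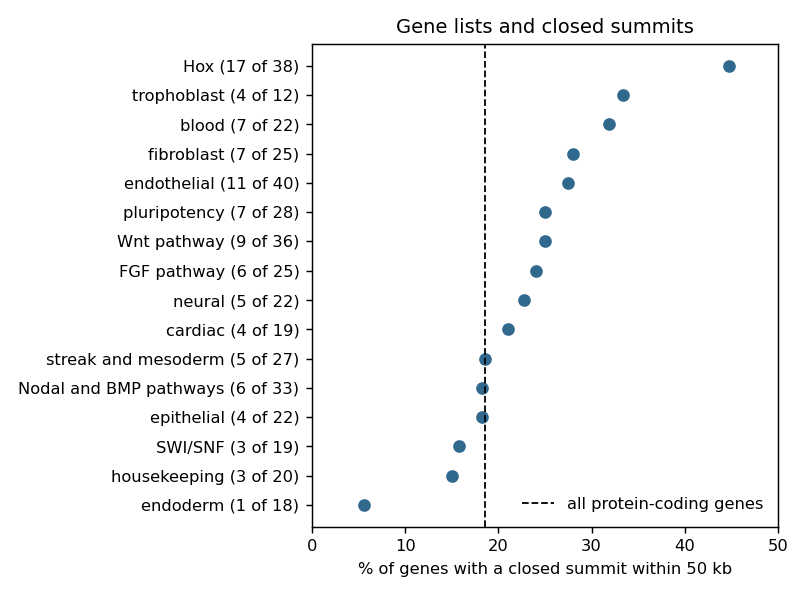
Share of the genes of each list with at least 1 closed summit within 50 kb (x axis, percent), with the number of genes beside the list's name (y axis) and the share over all protein-coding genes, 18.6%, as a dashed line. The Hox list stands highest at 44.7%, but its 17 genes share 4 closed summits.

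The early mesoderm genes were Msgn1 and Foxc1 with 2 closed sites each, and Gsc, Eomes and Pdgfra with 1. Msgn1, a driver of presomitic mesoderm, had 2 closed of 5 uninduced summits, at chr12:11177687 (score 15.4) and chr12:11198777 (14.1). The first of these was nearer to Kcns3 (26.5 kb) than to Msgn1 (30.7 kb). Foxc1, a forkhead factor of paraxial mesoderm, had 2 of 10, at chr13:31760406 (12.1) and chr13:31793634 (14.3). Pdgfra, the receptor that marks paraxial mesoderm, had chr5:75150124 (11.2), and the organizer gene Gsc had chr12:104467135 (36.6). Eomes, a T-box factor of the streak, had 1 of 12, at chr9:118507033 (10.3), and it lay inside Golga4. The Eomes site and chr13:31793634 were of the near kind, with a Flk1-positive summit 783 and 912 bp away. Of these 7 sites, both Foxc1 sites, the first Msgn1 site and the Pdgfra site were matched in both day-4 samples without 4OHT and in neither with it. That is 4 of 7, against 197 of all 3619 closed summits (5.44%) by the same criterion, a contrast noticed after the values were seen.

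Among pluripotency genes Nanog and Dppa3, neighbours on chromosome 6, shared the site chr6:122670434 (score 13.2). It lay 820 bp from an unsorted induced summit and so was of the near kind. Nanog also had chr6:122703845 (22.0), 3.64 kb outside the gene and 1201 bp from the nearest unsorted induced summit, so 2 of its 8 uninduced summits were closed and 6 kept. Fgf4, Jarid2, Prdm14 and Tcl1 were among those with 1 each. None of the 8 pluripotency sites was matched in both day-4 samples without 4OHT. In the heart list Actc1, the cardiac actin gene, had 2 closed of 4, of which chr2:114067307 (21.5) was matched in both day-4 samples without 4OHT and in neither with it. Ryr2, the heart's calcium release channel, had 2 of 8.

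Vascular and blood genes, the side that Etv2 serves, also had closed sites. Etv2 itself had 0 of 5 and Kdr 0 of 3. Nrp2, a VEGF co-receptor gene, had 2 of 7, of which chr1:62708216 (score 15.4) was matched in both day-4 samples without 4OHT and in neither with it. Cdh5, which codes for the endothelial cadherin, had 1 of the same kind at chr8:104068852 (12.1). Vwf, the von Willebrand factor gene, had 2 of 5. Adgrf5, Aplnr, Emcn, Erg, Ets1, Fli1, Nrp1 and Plvap had 1 each. The Aplnr site lay 431 and 425 bp from summits of the unsorted and Flk1-positive induced lists, and the Fli1 site 284 and 271 bp. Both were thus of the near kind, and 11 of the 13 endothelial sites lay beyond 1 kb. The Plvap site lay inside Ccdc194. The Adgrf5 and Fli1 sites and a Vwf site were nearer to other genes (Mep1a, Kcnj1 and Cd9). In all, 11 of 40 endothelial genes (27.5%) and 7 of 22 blood genes (31.8%) had a closed summit, against 18.6% of all genes. Summits of any score within 50 kb were also counted. The 3 lists differ in length (85498 uninduced, 77987 induced, 58004 Flk1-positive), and the counts were not adjusted for it. Kdr had 3 in the uninduced, 8 in the induced and 7 in the Flk1-positive list, and Nrp2 had 13, 14 and 9. Vwf had 9, 7 and 5, Runx1 16, 8 and 8, and Gata1 9, 5 and 6. Runx1, a factor that the first blood stem cells need, had 2 of 5, at chr16:92708458 (22.3) and chr16:92708774 (12.9). Gata1, the erythroid factor, had 2 of 4, which lie in or beside Glod5. No blood-gene site was matched in both day-4 samples without 4OHT.

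Pathway genes with several closed sites were few. Tcf7l1, a repressor at the end of the Wnt pathway, had 3 of 14, all at the same end of the gene and 294 to 1850 bp from unsorted induced summits. Wnt5b had 2 of 10, and Spred1, which dampens FGF signalling, 3 of 12. In the remaining lists En1, Grhl2, Tead1 and Brd9 had 2 each. Both Brd9 sites lay inside other genes, Trip13 and Zdhhc11, and a Grhl2 site lay inside Ncald. Tead1 had a site 409 bp from a Flk1-positive summit, chr7:112679894 (24.8). This Tead1 site was matched in both day-4 samples without 4OHT and in neither with it. In the Hox clusters 3 closed summits fell in Hoxb, at chr11:96285525 (12.7), chr11:96318412 (11.4) and the Hoxb1 site printed above, and 1 in Hoxd. There was none in Hoxa or Hoxc. The site beside Hoxb7, chr11:96285525, went the other way at day 4, matched in both samples with 4OHT and in neither without.

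Sequence could be read only in the 57 promoter windows, so it speaks for 1.58% of the group, and 40 of the 57 were of the near kind. Their median GC content was 60.7% and the median number of CpG 17, against 63.3% and 23 for windows with kept summits and 53.0% and 7 for all 32619 windows. The 17 windows beyond 1 kb, among them Defb10, 2900052N01Rik and Pld1, had a median GC of 54.7% and 6 CpG. Motifs were searched on both strands of the 300 bases. The ETS letters AGGAAGT were in 5.26% of closed windows, 7.73% of kept ones and 9.38% of all. A longer ETS motif, which shares its last bases with the former, was in 0 of 57 closed windows, which allows a share of up to 6.27% by the exact interval, against 8.98% of kept and 3.91% of all windows. The CCAAT letters bound by NF-Y were in 28.1%, 43.4% and 37.6%. The AP-1 letters TGANTCA were in 7 of 57 closed windows, or 12.3% (interval 5.08% to 23.7%), against 3.97% and 7.85%, and the Pld1 window was among the 7. The GATA letters AGATAA were in 8.77%, 4.07% and 11.2%, and the T-box letters AGGTGT in 7.02%, 9.50% and 13.8%. The GC box of the SP family, which can overlap the run of G in other motifs, was in 36.8%, 35.3% and 16.6%. These shares describe letters in a few windows, and with 57 windows most of their intervals take in the kept share.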

How the data were processed

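ATAC-seq was made with Tn5 and sequenced as paired reads, per the labels' protocols, and 34 samples form 17 groups of 2. Bowtie2 2.2.4, MACS2, HOMER and the mm10 build are named in the submitters' processing notes. The handling of duplicates, the transposase shift and excluded regions are not given in the sources used here. The scores the authors deposited are −log10 q values, with q under 0.05 in all 19 lists. Of these, 15 are 1 list per group, with the way of combining replicates not stated, and 4 are 1 list per day-4 sample. Nothing says whether replicates came from separate cultures.

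Summits on chromosomes 1 to 19 and X were matched within 250 bp with Python 3.11.15, numpy 2.4.6, pandas 2.3.3 and scipy 1.17.1. The search was tested on simulated data. Shares carry 95% exact Clopper-Pearson intervals, which cover counting error only. The day-4 groups were compared by an exact permutation test over samples. Genes, starts and promoter sequences came from RefSeq (GRCm38.p6), in which no starts on chromosome 18 were used. No genome was used, so motifs were searched in promoter windows in place of 100 bp around each summit. Named genes are the nearest genes of the 12 top scores, the 12 genes with most closed summits within 50 kb, up to 4 genes per list with 2 or more, the 5 densest 100 kb bins, Etv2 and Kdr. Other genes were named after their values were seen. Alternatives changed the distance, the score, whole peaks, gene windows and replicates. The members and lists were chosen with earlier results of these data known.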

Additional observations from a re-analysis of the deposited data

How the results depend on the processing

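The closed count was 2972 with matching within 500 bp, 2946 with whole peaks absent, 2836 beyond 1 kb and 913 at a score of 20 or more. The share at gene ends, 8.51%, became 2.52% within 500 bp, 1.90% with whole peaks absent, 1.73% beyond 1 kb, 12.1% for gene ends within 2 kb and 15.6% at a score of 20 or more. In the same order without the 2 kb setting, the share in uninduced MEF, 8.62%, became 6.33%, 5.23%, 5.11% and 12.8%. The share in peaks with another summit matched after induction, 18.6%, became 4.58% within 500 bp, 0.776% beyond 1 kb and 28.4% at a score of 20 or more. The mean day-4 share without 4OHT, 13.001%, was 21.4% at a score of 20 or more, 6.37% with lists of equal length, 2.83% with day-4 summits of score 10 or more, and 10.2% to 15.8% when either replicate was left out. The number of listed genes with a closed summit, 98, was 58 with a window of 10 kb.

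The 4OHT difference at closed summits was negative in every setting tried, from −14.2 (score of 20 or more) to −1.33 percentage points (day-4 summits of score 10 or more), and −12.5 to −6.87 with a replicate left out. The sign was not particular to closed summits. Kept summits differed by −10.3 points as deposited and by −2.66 with day-4 summits of score 10 or more. At equal length the kept difference was 0.300 against −3.33 for closed summits. With the replicate number as a block, the pairs gave −12.8 and −6.58 with a mean of −9.67 (exact sign-flip permutation p = 0.5, the smallest 2 pairs allow). The numbers are not stated to pair the samples. No design here can reach a small p. The motif windows of 100 and 50 bp around summits were not run, and the promoter windows moved with the setting. The ETS letters AGGAAGT were in 3 of the 17 windows beyond 1 kb (17.6%). These are the same 3 windows as among the 57, and the share is given without an interval. Read depth per list is unknown, which limits what an absent call shows.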
